A study of Mus musculus with 6 samples.

Results

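The loci described here are the rows of a muscle expression table that carry a position but no gene name. A row was taken when its gene field held only a dash and the authors had marked it as tested. This gave 1068 loci of 25927 rows in the whole table, or 8% of the 13347 tested rows, and all 1068 are accounted for in the counts given here. The table held 1895 such unnamed rows in all, and the other 827 had been left untested by the authors. The choice used no expression difference, but a tested status requires reads, so a locus close to 0 in 1 group could enter only through the other group.

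The study sequenced RNA of the gastrocnemius, a calf muscle made mostly of fast fibres, from C57BL/6J mice at 8 weeks of age. The tested mice (MLL4SET-MKO, 3 libraries) carry a muscle-specific knock-out of MLL4SET. Kmt2d encodes MLL4, an enzyme that methylates histone H3 at lysine 4, and SET is the name of its catalytic domain. The WT mice (3 libraries) are wild-type controls of the same strain, age and muscle. Neither labels nor table name the promoter or Cre line behind the knock-out, and the muscle holds other cell types beside fibres. The authors' deposited table gives 1 FPKM (fragments per kilobase of transcript, scaled to the mapped fragments of a library) for each group and no value of a single library. The values printed are therefore group values, without a spread over mice, and the depth behind them is unknown. A locus was called when its q-value in the authors' deposited table was under 0.05.

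When transcripts are assembled from reads, any stretch with enough aligned fragments becomes a locus, whether or not a gene is known there. Such loci commonly stem from long noncoding RNAs, which are transcribed like messenger RNAs but encode no protein, from extensions of known genes, and from processed pseudogenes. A processed pseudogene is a copy of a spliced messenger RNA put back into the genome, so its letters can match those of its parent gene and reads of the parent can align to it. Methylation of histone H3 at lysine 4 marks enhancers and promoters, and enhancers are themselves often transcribed into short-lived RNA.

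The sequences that follow show what kinds of stretches carry the main values. The first set comes from processed pseudogenes among the loci of highest FPKM, each with the matching coding stretch of its parent where the letters differ. Capitals mark the bases that differ between pseudogene and parent. The Gm9616 stretch (chr13:3298887-3299037, plus strand) held the same 151 bases as the coding sequence of Rps4x, a ribosomal protein gene. Gm4217 (chr15:84866716-84866871, plus strand) differed from Gapdh, a glycolytic enzyme gene, at 2 of 156 bases. D9Wsu149 (chr9:57483397-57483553, plus strand) differed from Mrpl21, a mitochondrial ribosomal protein gene, at 2 of 157 bases. The letters are those of GENCODE M21 transcripts, given 5′ to 3′.
Gm9616: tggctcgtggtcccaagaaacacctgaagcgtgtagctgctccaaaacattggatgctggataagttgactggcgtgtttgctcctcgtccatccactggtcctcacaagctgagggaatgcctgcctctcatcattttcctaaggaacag
Gm4217: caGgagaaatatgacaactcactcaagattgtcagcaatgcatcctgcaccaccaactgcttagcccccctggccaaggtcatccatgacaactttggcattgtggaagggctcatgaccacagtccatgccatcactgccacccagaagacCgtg
Gapdh: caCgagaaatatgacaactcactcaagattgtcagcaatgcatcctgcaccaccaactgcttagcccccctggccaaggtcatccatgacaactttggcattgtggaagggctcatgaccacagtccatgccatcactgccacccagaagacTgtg
D9Wsu149: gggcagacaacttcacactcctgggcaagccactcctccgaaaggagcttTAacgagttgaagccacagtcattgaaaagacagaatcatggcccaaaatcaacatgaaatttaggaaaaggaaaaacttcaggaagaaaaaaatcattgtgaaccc
Mrpl21: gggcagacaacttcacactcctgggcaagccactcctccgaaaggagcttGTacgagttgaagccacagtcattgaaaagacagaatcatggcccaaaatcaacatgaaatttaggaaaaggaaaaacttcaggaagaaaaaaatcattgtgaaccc

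The second set holds stretches of annotated noncoding exons inside called loci. Gm10032 (chr14:66792046-66792245, plus strand) and Gm36235 (chr12:15998411-15998526, minus strand) lie in loci that were higher in MLL4SET-MKO. Gm4544 (chr15:102657568-102657767, plus strand) and Foxo6os (chr4:120302083-120302282, plus strand) lie in loci that were lower. These letters are also from GENCODE M21 on mm10, given 5′ to 3′, with no part marked.
Gm10032: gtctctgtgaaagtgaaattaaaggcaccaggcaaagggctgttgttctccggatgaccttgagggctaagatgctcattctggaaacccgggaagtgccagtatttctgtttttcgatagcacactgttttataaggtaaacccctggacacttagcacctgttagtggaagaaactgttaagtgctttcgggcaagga
Gm36235: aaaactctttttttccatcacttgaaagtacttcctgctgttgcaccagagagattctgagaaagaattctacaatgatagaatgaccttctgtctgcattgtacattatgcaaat
Gm4544: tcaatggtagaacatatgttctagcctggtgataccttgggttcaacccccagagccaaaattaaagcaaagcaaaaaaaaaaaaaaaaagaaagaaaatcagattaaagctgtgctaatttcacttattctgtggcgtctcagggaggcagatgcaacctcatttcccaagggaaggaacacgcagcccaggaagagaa
Foxo6os: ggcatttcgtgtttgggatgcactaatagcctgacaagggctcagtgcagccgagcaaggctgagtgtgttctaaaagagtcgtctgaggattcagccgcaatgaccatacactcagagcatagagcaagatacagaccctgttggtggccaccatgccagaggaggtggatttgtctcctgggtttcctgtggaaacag

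The third set holds RefSeq promoter windows, from 250 bases before to 50 bases after an annotated start, of noncoding genes in 2 clusters of called loci described later. Gm32885 (chr15:97167195-97167494, minus strand) stands in a cluster that was higher in MLL4SET-MKO, and Gm42155 (chr5:111468178-111468477, plus strand) in one that was lower. Windows were searched for CAGCTG, an E-box that muscle regulatory factors bind, and for the MEF2 box, here CTA and TAG with any 4 bases between them. Each motif reads the same on both strands. Among all 32817 promoter windows of RefSeq on GRCm38.p6, 16.3% held CAGCTG and 3.69% held the MEF2 box. Neither of the 2 windows held either motif, so no base is in capitals. Of 9 windows that lay whole inside 8 called loci, 3 held CAGCTG and 0 held the MEF2 box. Among these 3 was the window of Gm33253, not shown, which lies in the same chromosome 15 cluster as that of Gm32885.
Gm32885: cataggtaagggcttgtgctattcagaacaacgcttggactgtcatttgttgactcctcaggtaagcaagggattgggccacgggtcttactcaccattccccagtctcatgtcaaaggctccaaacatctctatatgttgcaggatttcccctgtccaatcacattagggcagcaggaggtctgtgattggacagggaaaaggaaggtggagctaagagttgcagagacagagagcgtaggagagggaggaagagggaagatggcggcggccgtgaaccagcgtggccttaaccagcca
Gm42155: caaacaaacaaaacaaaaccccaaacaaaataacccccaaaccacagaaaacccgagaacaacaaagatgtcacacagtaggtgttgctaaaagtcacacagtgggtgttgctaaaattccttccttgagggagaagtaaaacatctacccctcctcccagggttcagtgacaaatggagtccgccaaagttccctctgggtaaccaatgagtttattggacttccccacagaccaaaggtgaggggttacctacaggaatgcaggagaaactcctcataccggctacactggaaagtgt

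Most unnamed loci were short and weakly expressed. Their median level was 0.707 FPKM in MLL4SET-MKO and 0.677 FPKM in WT, against 6.28 FPKM in MLL4SET-MKO and 6.43 FPKM in WT for tested rows with a symbol. A level of 1 FPKM or more was reached by 400 loci in MLL4SET-MKO and by 381 in WT. Their median span in the genome was 1230 bases (152 to 89059), against 28133 bases for rows with a symbol. Of the 1068 loci, 171 were called (16%), against 11.8% of all tested rows and 11.5% of rows with a symbol. The calls split into 87 higher in MLL4SET-MKO (8.15%, against 4.44% of all tested rows and 4.11% of rows with a symbol) and 84 lower (7.87%, against 7.41% and 7.37%). With p-values taken from the authors' statistic as a standard normal value, 61 of 1052 loci were called (5.8%), against 3.11% of all tested rows. Called loci above 0 in both groups had a median log2 ratio of 1.65 when higher and -1.26 when lower, with a median standard error of 0.30 worked back from the authors' test. Over the 383 loci with a mean of at least 1 FPKM, 71 were called (18.5%, against 12% of all tested rows at that level). Of these, 27 were higher and 44 lower, where 4.03% of all tested rows at that level were higher and 7.93% lower. The median log2((MLL4SET-MKO FPKM + 1)/(WT FPKM + 1)) over those 383 loci was -0.01, against -0.03 over all tested rows at that level.

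**Figure D1:**
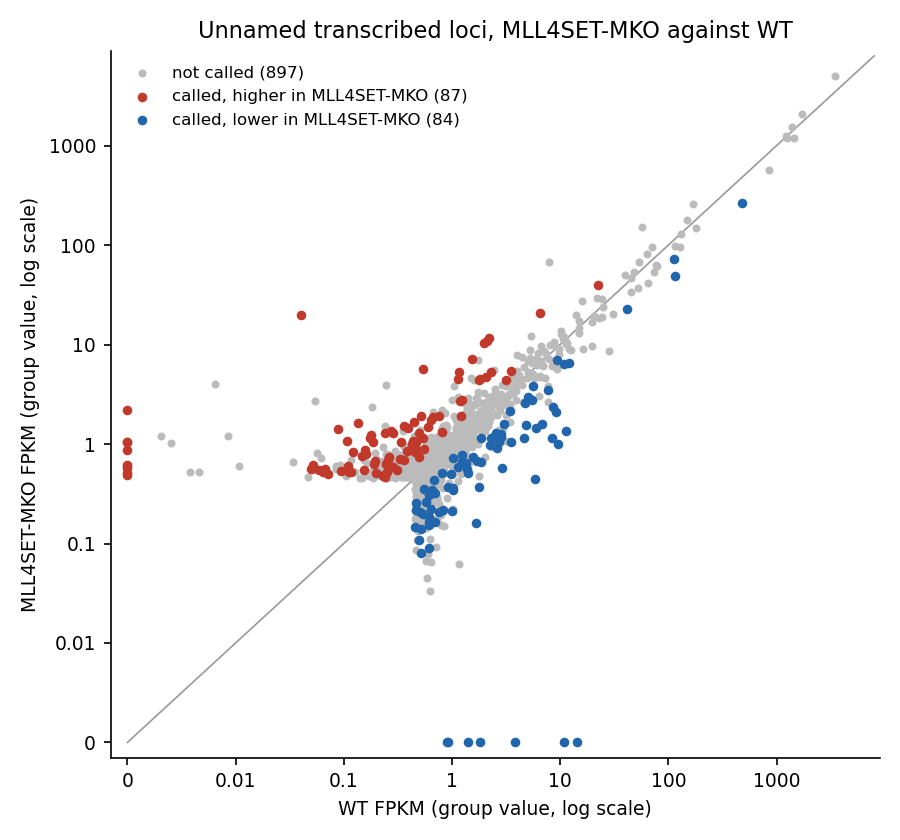
Each point is 1 of 1068 unnamed loci, with its MLL4SET-MKO FPKM on the vertical and its WT FPKM on the horizontal log axis, values of 0 drawn at the tick labelled 0, and the line of equal values. Red points (87) were called higher and blue points (84) lower in MLL4SET-MKO, and most points of either colour lie under 10 FPKM, with a few of them at 0 on 1 axis.

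By level and by length, the shares called are given without a test of their differences. At a mean of 5 to 20 FPKM, 15 of 67 unnamed loci were called (22.4%), against 11.6% of 4079 rows with a symbol. At 20 FPKM and above, 5 of 39 unnamed loci were called (12.8%), against 15.5% of 2783 rows with a symbol. By length, the shares stand beside 11.8% of all tested rows called, and no share was computed for rows with a symbol of like span. Of 335 loci spanning 2000 bases or more, 105 were called (31.3%). Of 568 loci from 500 to 2000 bases, 50 were called (8.8%), and of 146 loci from 200 to 500 bases, 15 (10.3%). Among the 19 loci under 200 bases, 1 was called, and their median level was 111 FPKM.

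**Figure D2:**
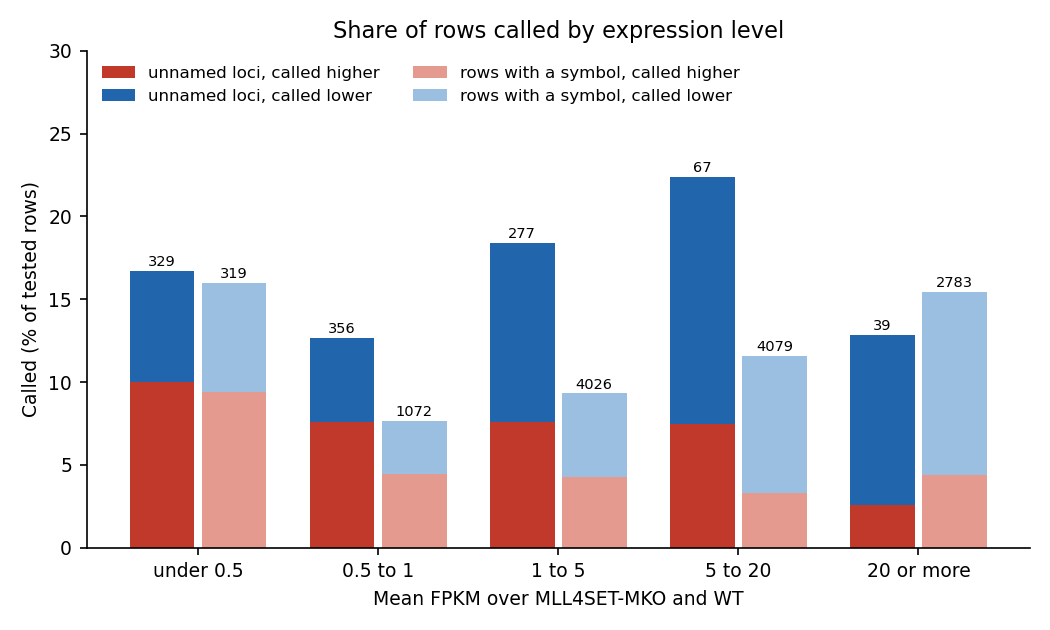
Bars give the percent of tested rows called in 5 ranges of mean FPKM, unnamed loci on the left and rows with a symbol on the right of each pair. The lower part of a bar is called higher and the upper part called lower in MLL4SET-MKO, and the number on a bar is the number of rows; unnamed loci have the taller bar except at 20 FPKM and above.

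Kmt2d, the targeted gene, stood at 5.65 FPKM in MLL4SET-MKO and 8.77 FPKM in WT over the whole gene. Its log2 ratio was -0.64 (95% interval -0.89 to -0.38, worked back from the authors' test). For this and every other row at the smallest p-value of that test, such an interval is approximate and may be too narrow. Among marker genes of cell types, 5 of 9 tested macrophage genes were called, all higher, and their FPKM summed to 158 in MLL4SET-MKO and 99.2 in WT. The part of these cells in the values of unnamed loci was not tested. No endothelial, fibroblast, adipocyte, Schwann cell or erythroid marker was called. Of the 7 muscle fibre markers that could be tested, 6 were not called, and 3 further ones had failed estimates. The called one, Mylpf, was lower, at 6959 FPKM in MLL4SET-MKO and 10773 FPKM in WT. The muscle fibre markers summed to 25900 FPKM in MLL4SET-MKO and 29500 FPKM in WT. In bulk muscle, fewer cells of a type and less RNA per cell cannot be told apart, which holds for every locus given here.

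The 8 loci of highest FPKM overlapped annotated processed pseudogenes, and 1 of the 8 was called. These 8 loci held 77.9% of the summed FPKM of unnamed loci in MLL4SET-MKO and 76.6% in WT. They spanned only 152 to 326 bases, and the part of this short length in their FPKM was not tested. Gm5507 (chromosome 18, 53984530 to 53984681), whose copied stretch matched Gapdh over 150 bases without a mismatch, had 4986 FPKM in MLL4SET-MKO and 3486 FPKM in WT. Its log2 ratio of 0.52 had an interval of -0.59 to 1.63, so the group values did not differ beyond their error. Gm9616, the Rps4x copy shown above, had 2072 FPKM in MLL4SET-MKO and 1706 FPKM in WT (log2 ratio 0.28, interval -0.13 to 0.70). Mylf-ps, whose annotated part in the locus aligned to the fast myosin light chain gene Myl1 over only 39 bases, had 1542 FPKM in MLL4SET-MKO and 1400 FPKM in WT. The Gapdh copy Gm4217 had 1187 FPKM in MLL4SET-MKO and 1465 FPKM in WT, a log2 ratio of -0.30 (interval -1.26 to 0.65). D9Wsu149, the Mrpl21 copy, had 1240.1 FPKM in MLL4SET-MKO and 1226.5 FPKM in WT. Gm14539, which matched Usmg5, a gene of the ATP synthase complex, over 44 bases, and Gm10080, which matched the myosin light chain gene Myl6, were not called either (q = 0.948 and 0.359 in the authors' deposited table).

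The called locus among the 8 was Gm13464 (chromosome 2, 43518505 to 43518688), which matched Gapdh over 180 bases with 1 mismatch. It had 266 FPKM in MLL4SET-MKO and 482 FPKM in WT, a log2 ratio of -0.86 (interval -1.39 to -0.32, q = 0.0191 in the authors' deposited table). Gapdh itself stood at 5837 FPKM in MLL4SET-MKO and 5996 FPKM in WT and was not called (q = 0.940). Among the 8 loci, the copies of Gapdh and Myl1 stood below their parents, and the others stood above theirs. Rps4x had 270 FPKM in MLL4SET-MKO and 259 FPKM in WT, and Mrpl21 had 20.6 and 19.1 FPKM. Usmg5 had 781 and 695 FPKM, and Myl6 had 115 and 105 FPKM, in the same order. The cause of these gaps was not tested. Reads of a parent and of a copy with the same letters cannot be told apart, so all pseudogene values here are uncertain.

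Of the 1068 loci, 79 overlapped an exon of an annotated pseudogene, and 14 of these were called (17.7%, against 11.8% of all tested rows), 7 higher and 7 lower. They were matched with BLAST against GENCODE protein-coding transcripts of genes that had a tested row. Other genes could not be found as parents, and a parent named here is the best match in that set. Of the 79, 68 aligned to such a gene, and 42 did so at 95% identity or more over at least 90% of the stretch. Among these 42 close copies, 6 were copies of Gapdh and 8 of ribosomal protein genes, and 4 were called (9.52%, against 11.8% of all tested rows), all 4 lower in MLL4SET-MKO. Beside Gm13464, these were Gm8730, a copy of the ribosomal protein gene Rplp0 (49.3 FPKM in MLL4SET-MKO and 114 FPKM in WT), Gm6969, a copy of the respiratory chain gene Cox7a2l (22.7 FPKM in MLL4SET-MKO and 41.7 FPKM in WT), and Gm9855. Gm9855, a copy of the DNA repair gene Tdg, was listed at 0 in MLL4SET-MKO and had 1.82 FPKM in WT. Another locus over Gm8730, also among the close copies, had 1.84 FPKM in MLL4SET-MKO and 2.27 FPKM in WT and was not called (q = 0.867 in the authors' deposited table). None of the 4 parent genes was called. Of the 6 Gapdh copies, which had 4.38 to 4986 FPKM in MLL4SET-MKO, only Gm13464 was called.

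Placed against GENCODE M21, 538 loci (50.4%) overlapped an annotated exon, 90 lay inside an intron, 145 downstream and 126 upstream of a gene within 10 kb, and 169 farther away. The shares called in each place follow, with no test of their differences, beside 11.8% of all tested rows called (4.44% higher and 7.41% lower). Of 218 over noncoding exons, 48 were called (22.0%), 25 higher and 23 lower, and of 235 over coding exons, 18 (7.66%), 6 higher and 12 lower. Among the 169 loci more than 10 kb from an annotated gene, 46 were called (27.2%), 31 higher and 15 lower. Their median span was 1490 bases, against 860 bases for loci over coding exons. On the standard normal reading, 23 of 218 loci over noncoding exons (10.6%) and 16 of 161 far loci (9.94%) were called, against 3.11% of all tested rows. After RefSeq genes were added, 271 loci overlapped no gene of either annotation, and 52 of these were called (19.2%), 36 higher and 16 lower. None of the miRNA hairpins of RefSeq overlapped a tested unnamed locus.

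Among loci over noncoding exons, Gm10032 had the largest increase on the log2(FPKM + 1) scale. This intergenic RNA (chromosome 14, 66791548 to 66794309) had 5.73 FPKM in MLL4SET-MKO and 0.544 FPKM in WT, a log2 ratio of 3.40 (interval 2.93 to 3.87). Of its neighbours, chosen after their values were seen, the alpha-1A adrenergic receptor gene Adra1a was also higher (3.93 FPKM in MLL4SET-MKO and 1.12 FPKM in WT, q = 0.000903 in the authors' deposited table). Dpysl2, a cytoskeletal regulator gene on its other side, had 2.58 FPKM in MLL4SET-MKO and 2.54 FPKM in WT.

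A pair of loci over AC138228.2 on chromosome 17 rose together. The one at 31907881 to 31908647 had 7.10 FPKM in MLL4SET-MKO and 1.52 FPKM in WT, and the one at 31908785 to 31909046 had 20.9 FPKM in MLL4SET-MKO and 6.54 FPKM in WT. Gm43699 (chromosome 5, 43378986 to 43382461) had 5.35 FPKM in MLL4SET-MKO and 1.17 FPKM in WT, a log2 ratio of 2.19 (interval 1.83 to 2.56). A locus 3482 bases downstream of the pseudogene Gm11581 (chromosome 1, 60813424 to 60815647), overlapping no annotated gene, had 4.47 FPKM in MLL4SET-MKO and 1.14 FPKM in WT. On chromosome 18, a locus at 22679260 to 22679572 stood 13609 bases from Nol4, with 11.7 FPKM in MLL4SET-MKO and 2.22 FPKM in WT. Its log2 ratio of 2.40 had a wide interval (0.94 to 3.86, q = 0.0150 in the authors' deposited table). The locus at 14738924 to 14740107 on chromosome 1 had 1.42 FPKM in MLL4SET-MKO and 0.0890 FPKM in WT, with an interval of 1.18 to 6.80 around its log2 ratio of 3.99. All of these loci were called.

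Among the decreases, the intergenic RNA Gm4544 on chromosome 15 was covered by a pair of loci. The one at 102657472 to 102657780 had 1.35 FPKM in MLL4SET-MKO and 11.4 FPKM in WT, a log2 ratio of -3.08 (interval -5.04 to -1.12). The one at 102659420 to 102660457 had 1.16 FPKM in MLL4SET-MKO and 8.41 FPKM in WT, a log2 ratio of -2.86 (interval -3.41 to -2.31). The neighbouring gene Atp5g2, a subunit of ATP synthase, did not follow, at 402.8 FPKM in MLL4SET-MKO and 403.1 FPKM in WT. Gm33432 (chromosome 15, 84129082 to 84132183) had 2.34 FPKM in MLL4SET-MKO and 8.59 FPKM in WT, a log2 ratio of -1.88 (interval -2.19 to -1.56).

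Foxo6os, an RNA antisense to the forkhead transcription factor gene Foxo6 on chromosome 4, was also covered by a pair of loci, and both were lower. At 120302078 to 120304142 the locus had 2.10 FPKM in MLL4SET-MKO and 9.23 FPKM in WT, and at 120291241 to 120291833 it had 1.59 FPKM in MLL4SET-MKO and 6.84 FPKM in WT. Foxo6 itself had 2.41 FPKM in MLL4SET-MKO and 6.87 FPKM in WT (log2 ratio -1.51, interval -1.87 to -1.15). Neither locus overlapped the deposited row of Foxo6, and the nearer lay 3980 bases from it. No label or header says whether counting used strand, so whether reads over these loci come from the antisense strand cannot be told.

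A pair of loci over Ighm, the constant part of the immunoglobulin M heavy chain that B cells make, was lower. At 113420492 to 113424322 on chromosome 12 the locus had 0.991 FPKM in MLL4SET-MKO and 9.45 FPKM in WT, and at 113418558 to 113419407 it had 0.441 FPKM in MLL4SET-MKO and 5.82 FPKM in WT. The remaining locus of their cluster of 3 went the other way, at 1.52 FPKM in MLL4SET-MKO and 0.242 FPKM in WT, and was not called. Of 9 B and plasma cell markers, 7 had a row and 1 could be tested. That row, shared by Mzb1, Prob1 and Spata24, was lower, at 19.0 FPKM in MLL4SET-MKO and 30.6 FPKM in WT, and made up most of a summed marker level of 19.4 FPKM in MLL4SET-MKO and 31.0 FPKM in WT. Only Mzb1 of these 3 genes is a listed marker, and the level of the row cannot be assigned to it, so neither can the lower sum. The B cell receptor gene Cd79a stood at 0.0988 FPKM in MLL4SET-MKO and 0.0633 FPKM in WT, and its partner Cd79b at 0.154 FPKM in MLL4SET-MKO and 0.157 FPKM in WT. Ms4a1, which encodes a surface protein of B cells, stood at 0.0126 FPKM in MLL4SET-MKO and 0.0252 FPKM in WT. Jchain, which joins secreted antibodies, stood at 0.179 FPKM in MLL4SET-MKO and 0.135 FPKM in WT. Pou2af1, a transcriptional coactivator gene of B cells, had 0.0138 FPKM in MLL4SET-MKO and was listed at 0 in WT.

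Several decreases ended at a listed value of 0. Of the 1068 loci, 7 were listed at 0 in MLL4SET-MKO and 9 in WT, and all 16 were called, while the whole table held 20 such tested rows. All 16 carry the smallest p-value of the authors' test (5e-05) but no usable statistic, so their calls give no measure of evidence. They are among the 171 calls, and without them 155 of 1052 loci were called (14.7%). On chromosome 10 lay 5 of the 7. The locus over Gm2539 (22100663 to 22100874) was listed at 0 in MLL4SET-MKO and had 14.3 FPKM in WT, and a locus 3402 bases upstream of the pseudogene Gm19791 (22107001 to 22107219) was listed at 0 in MLL4SET-MKO and had 10.9 FPKM in WT. Gm9855, given above, and a locus 1041 bases downstream of it made up a second pair. On chromosome 9, the locus over the olfactory receptor pseudogene Olfr369-ps1 (3235971 to 3236226) was listed at 0 in MLL4SET-MKO and had 3.8 FPKM in WT. A listed 0 can be a failed estimate, and no fold is given against it. Loci just above 0 were treated differently by the authors' test. Of 35 loci at least 8-fold apart with a value above 0 in both groups, 21 were not called.

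Called loci of 1 cluster mostly went one way. Chained at gaps of up to 10 kb, 691 loci stood alone and 377 (35.3%) fell into 134 clusters of 2 to 18 loci. At least 2 called loci were held by 19 clusters, and in 18 of these all calls went one way, 8 higher and 10 lower in MLL4SET-MKO. Calls of loci listed at 0 are included in these counts. Whether neighbouring rows are pieces of 1 transcript was not tested, so loci of a cluster may not be independent. The cluster with 18 loci had 0 calls, and one of 15 loci had 1.

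A cluster of 7 loci on chromosome 6 (66331556 to 66389909), 58.4 kb long, had a higher FPKM in MLL4SET-MKO at every locus, and 4 of the 7 were called. Levels ran from 0.493 to 19.7 FPKM in MLL4SET-MKO and reached at most 0.0406 FPKM in WT. The highest, at 66368815 to 66389909, had 19.7 FPKM in MLL4SET-MKO and 0.0406 FPKM in WT, a log2 ratio of 8.92 (interval 8.39 to 9.45, q = 0.000903 in the authors' deposited table). It overlapped no gene of GENCODE or RefSeq. The next, at 66354582 to 66357215, had 4.02 FPKM in MLL4SET-MKO and 0.00650 FPKM in WT and was not called (q = 0.439). The other 3 called loci had 0.493 to 1.04 FPKM in MLL4SET-MKO and were listed at 0 in WT, so without rows listed at 0 the calls were 1 of 4. The signal was not limited to this cluster. Before it, from 66080773 to 66293613, lay 5 more called loci with 0.515 to 2.22 FPKM in MLL4SET-MKO, all listed at 0 in WT, the highest of them at 66259550 to 66262773. From 66085326 to 66313766 lay 4 loci that were not called, with 0.529 to 2.74 FPKM in MLL4SET-MKO and 0.00207 to 0.0542 FPKM in WT. These loci outside the cluster were grouped after their values were seen. With 1 value per group, the number of MLL4SET-MKO mice that carried this signal is not known here.

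A longer run of loci that were higher lay on chromosome 12 between Trib2, a pseudokinase gene, and Lpin1, which encodes a phosphatidate phosphatase. Its bounds were chosen after the values were seen. It held 18 unnamed rows over 410.3 kb (15878906 to 16289226), of which 14 were tested and 10 called. All 14 tested rows had a higher value in MLL4SET-MKO, with log2 ratios from 0.66 to 3.54 and a median of 2.38, and of the 10 calls 8 fell in 1 cluster (15929333 to 16019323). At a mean of at least 1 FPKM, 2 of the rows were called. The locus at 15929333 to 15930065 had 10.9 FPKM in MLL4SET-MKO and 2.09 FPKM in WT, a log2 ratio of 2.38 (interval 1.84 to 2.92). The locus at 15983003 to 15998737, over exons of the intergenic RNA Gm36235, had 10.4 FPKM in MLL4SET-MKO and 1.98 FPKM in WT, a log2 ratio of 2.38 (interval 2.12 to 2.64). Between them, a row spanning 28559 bases had 1.52 FPKM in MLL4SET-MKO and 0.362 FPKM in WT. Within the cluster, 1 of 9 loci was not called, at 15980215 to 15980687, with 2.19 FPKM in MLL4SET-MKO and 0.809 FPKM in WT (q = 0.123 in the authors' deposited table). Of the genes on either side, Trib2 had 5.40 FPKM in MLL4SET-MKO and 6.59 FPKM in WT and was not called, and Lpin1 was lower, at 58.996 FPKM in MLL4SET-MKO and 79.9 FPKM in WT.

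**Figure D3:**
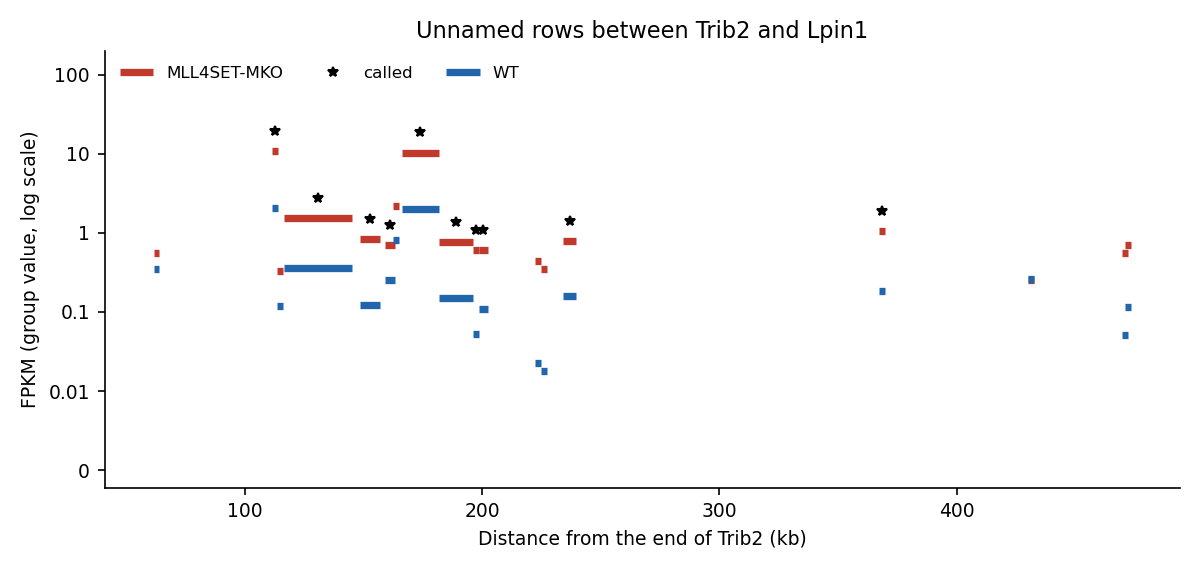
Each bar is 1 of 18 unnamed rows, placed by its distance in kb from the end of Trib2 and by its FPKM on a log axis, with short rows drawn wider than they are. Red MLL4SET-MKO bars lie above blue WT bars in 17 rows, and stars mark the 10 called rows.

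The cluster on chromosome 15 over and near Gm32885 (97156846 to 97184261) held 4 loci, and all 4 were called higher. The locus at 97156846 to 97161714 had 1.63 FPKM in MLL4SET-MKO and 0.136 FPKM in WT, a log2 ratio of 3.58 (interval 2.97 to 4.198). The locus at 97165632 to 97167937, which holds the Gm32885 promoter window shown above, had 1.16 FPKM in MLL4SET-MKO and 0.176 FPKM in WT. Levels of the other 2 were 1.28 and 0.553 FPKM in MLL4SET-MKO, against 0.240 and 0.0595 FPKM in WT. Of the genes on either side, the amino acid transporter gene Slc38a4 was higher (92.8 FPKM in MLL4SET-MKO and 64.2 FPKM in WT) and Amigo2, a cell adhesion gene, was not called (2.71 FPKM in MLL4SET-MKO and 3.06 FPKM in WT).

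This cluster lies within 5 Mb of Kmt2d, as does Gm4544. In the window of 5 Mb to either side, 10 of 20 unnamed loci were called (50%), 7 higher and 3 lower. Of all 132 tested rows there, which include these 20, 17.4% were called, against 11.8% of all tested rows. No share was computed for the rows with a symbol alone. The 4 loci of the cluster and the pair over Gm4544 are 6 of the 10. The others were a locus over the pseudogene Gm49500, at 1.28 FPKM in MLL4SET-MKO and 0.288 FPKM in WT, a locus over the intergenic RNA Gm28876, at 0.506 FPKM in MLL4SET-MKO and 0.811 FPKM in WT, a locus over an exon of the orphan nuclear receptor gene Nr4a1, at 0.826 FPKM in MLL4SET-MKO and 0.451 FPKM in WT, and a locus 2297 bases upstream of the homeobox gene Hoxc10, at 0.891 FPKM in MLL4SET-MKO and 0.467 FPKM in WT. On the standard normal reading, the loci at Nr4a1, Hoxc10 and Gm28876 and the shorter Gm4544 locus were not called, and the rest of the 10 were. Nr4a1 itself was not called, at 139.8 FPKM in MLL4SET-MKO and 172.6 FPKM in WT. A difference carried by the targeted stretch of chromosome and a response to the deletion cannot be told apart for these loci.

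The cluster on chromosome 5 (111465281 to 111473653) held 4 loci, and all 4 were called lower. It begins 8256 bases from Mn1, a gene for a transcriptional coregulator, which was lower as well (10.1 FPKM in MLL4SET-MKO and 16.3 FPKM in WT, log2 ratio -0.69, interval -0.94 to -0.44). The locus at 111469003 to 111472834 had 1.14 FPKM in MLL4SET-MKO and 4.59 FPKM in WT, a log2 ratio of -2.01 (interval -2.37 to -1.64). The locus at 111473206 to 111473653 had 1.44 FPKM in MLL4SET-MKO and 5.95 FPKM in WT. The other 2 had 0.680 and 0.513 FPKM in MLL4SET-MKO, against 1.69 and 1.42 FPKM in WT. On the far side of Mn1, the lipid transfer gene Pitpnb did not differ beyond its error (11.9 FPKM in MLL4SET-MKO and 12.4 FPKM in WT).

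Each locus was then set beside the nearest tested gene with a symbol within 10 kb. Such a gene was found for 463 loci, of which 2 overlapped it, and 605 loci had none. Overlap and distance refer to the gene's deposited row, so some loci counted as apart lay over annotated exons of the same gene. Of the 461 pairs with a ratio for each member, 57.7% had ratios of the same sign, and Spearman's rho across these pairs was 0.28. Pairs share libraries and may share reads, so this describes the pairs and is not a test. Of the 171 called loci, 47 had such a gene, and in 40 of these pairs the gene had the same direction. The gene was called as well in 19 of the 47 pairs (40.4%), against 13.5% of the 416 pairs whose locus was not called and 11.8% of all tested rows, and this difference was not tested. In all 19 the directions matched, 4 higher and 15 lower in MLL4SET-MKO.

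The 15 lower pairs included genes of the contractile apparatus and of muscle metabolism. A locus 1505 bases from the slow myosin light chain gene Myl2 had 0.0808 FPKM in MLL4SET-MKO and 0.515 FPKM in WT, beside 62.0 FPKM in MLL4SET-MKO and 270.1 FPKM in WT for Myl2. A locus 2406 bases from Actn2, the Z-disc alpha-actinin gene, had 6.54 FPKM in MLL4SET-MKO and 12.04 FPKM in WT, beside 255 FPKM in MLL4SET-MKO and 351 FPKM in WT for Actn2. The locus 661 bases from Slc6a8, the creatine transporter gene, had 6.98 FPKM in MLL4SET-MKO and 9.26 FPKM in WT, beside 46.1 FPKM in MLL4SET-MKO and 62.6 FPKM in WT for Slc6a8. Over an annotated exon of Asb11, a subunit gene of a ubiquitin ligase, the locus had 6.33 FPKM in MLL4SET-MKO and 10.8 FPKM in WT. Over an annotated exon of Adprhl1, a relative of the ADP-ribosylhydrolases, the locus had 3.52 FPKM in MLL4SET-MKO and 7.74 FPKM in WT. For the DNA methyltransferase gene Dnmt3a, the locus also lay over an annotated exon, 54 bases from the gene's deposited row. It had 0.642 FPKM in MLL4SET-MKO and 1.36 FPKM in WT. Whether reads of these loci belong to extended forms of the genes was not tested.

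The 4 higher pairs had loci beside Mchr1, Spns2, Ppp1r14b and C130080G10Rik. The locus upstream of Mchr1, the receptor gene of melanin-concentrating hormone, had 1.08 FPKM in MLL4SET-MKO and 0.107 FPKM in WT, beside 3.36 FPKM in MLL4SET-MKO and 2.05 FPKM in WT for Mchr1. The locus upstream of Spns2, a sphingosine-1-phosphate transporter gene, had 0.560 FPKM in MLL4SET-MKO and 0.0673 FPKM in WT. At C130080G10Rik, an antisense RNA gene, the locus lay over an annotated exon of the gene. It had 0.881 FPKM in MLL4SET-MKO and 0.156 FPKM in WT, and the gene had 18.4 FPKM in MLL4SET-MKO and 1.88 FPKM in WT. The locus beside Ppp1r14b, an inhibitor gene of protein phosphatase 1, lay over an annotated exon of another gene, Plcb3. It had the highest q of these 4 (1.04 FPKM in MLL4SET-MKO and 0.337 FPKM in WT, q = 0.0496 in the authors' deposited table).

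**Figure D4:**
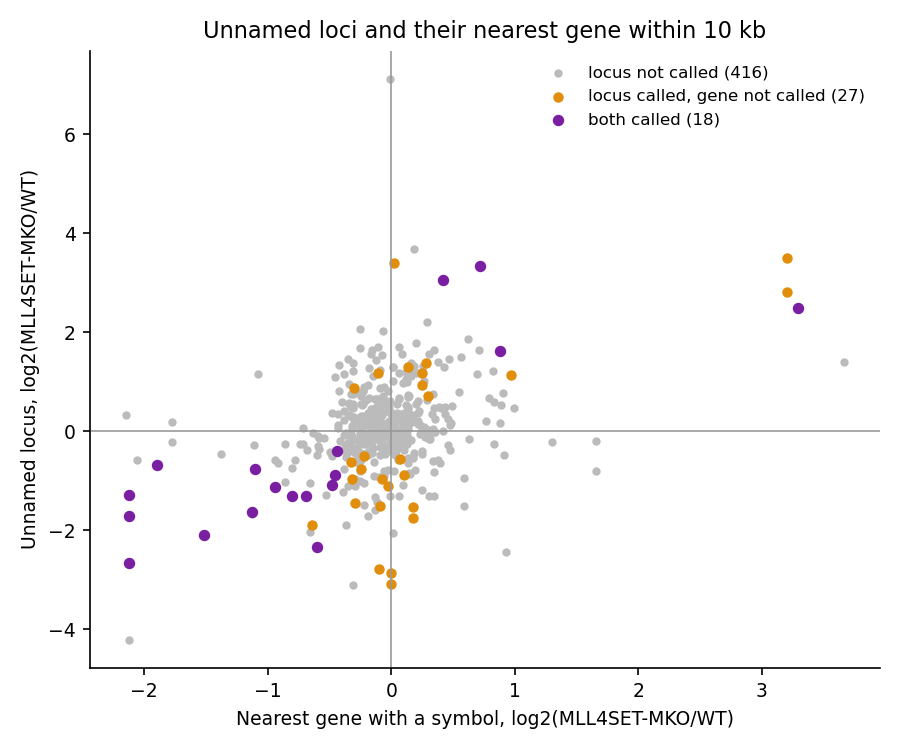
Each point is 1 of 461 pairs, with the log2 ratio of the unnamed locus on the vertical axis and that of its nearest gene with a symbol within 10 kb on the horizontal axis. Purple points mark pairs in which both were called, and every one of them lies in the lower left or the upper right part; the pair of Pebp4, listed at 0 in MLL4SET-MKO, has no ratio and is not drawn.

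The remaining 124 called loci had no tested gene with a symbol within 10 kb, and 72 of them were higher and 52 lower in MLL4SET-MKO. By chromosome, the share called ran from 4% of 75 loci on chromosome 11, where 11.5% of all tested rows were called, to 32.6% of 46 on chromosome 18, against 14.3% of all tested rows there. Chromosome Y, with its 2 loci, is left out. Chromosome 12 had 28.8% of 52 loci called, against 12.3% of all its tested rows, with 11 of its 15 calls higher. Of these 11, 10 lay in the stretch between Trib2 and Lpin1. Chromosome 6 had 24.6% of 57 called, against 12.8%, with 13 of 14 higher. Most of these 13 were the called loci of the cluster given above and of the stretch before it, nearly all listed at 0 in WT. Chromosome 10 had 14.9% of 47 called, against 10.4%, with 0 higher and 7 lower, and 5 of the 7 were listed at 0 in MLL4SET-MKO. These shares therefore rest largely on single stretches or on rows listed at 0.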

How the data were processed

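RNA of 3 MLL4SET-MKO and 3 WT gastrocnemius muscles was sequenced, with the build mm10 (GRCm38) and the tools Cufflinks 2.2.1, TopHat2 2.0.14, bcl2fastq and FastQC 0.11.3, per the submitters' processing notes. The authors deposited 1 table in the layout of Cuffdiff, per the file headers, with 1 FPKM per group, a test statistic (a score), and its p-value and q-value. Annotation release, scaling between libraries, read counts and strand setting are not stated there. In the authors' deposited table, the smallest p-value (5e-05) is shared by 739 rows, and 20 test statistics are spreadsheet errors and were left out.

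The members and lists were chosen with earlier results of these data known. Ratios, clusters and places were computed with Python 3.11.15, pandas 2.3.3 and SciPy 1.17.1. Locus starts were counted from 1. For 22642 rows the symbol names a single GENCODE M21 gene, and 98.6% of them lie over it. The p-values corresponded to a normal deviate of 1.74 times the statistic by median over 11257 rows, but not in every row. On chromosome 12, a locus with a statistic of 2.87 had p = 5e-05, and another with 2.87 had p = 0.0031, in the authors' test. Standard errors and 95% intervals of log2 ratios without a pseudocount were worked back from each row's p-value. At the smallest p-value the factor of 1.74 was used instead, so intervals of those rows are approximate and may be too narrow. Pseudogene stretches were aligned with blastn 2.17.0.

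The loci named are the 12 largest called increases and 12 largest decreases on the log2(FPKM + 1) scale with at least 1 FPKM in the higher group, the 8 of highest mean FPKM, the members of the 4 clusters with the most calls and called loci within 5 Mb of Kmt2d, with their nearest gene. Others were named after their values were seen, and some items are not reported here. Sequences were to come from loci outside exons. No genome was used here, so promoter windows and transcript stretches are shown instead. The adjustment of p-values was tested on simulated data.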

Additional observations from a re-analysis of the deposited data

Results flagged for a closer look

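Unnamed rows that the authors did not test also held signal above the WT level. Of 827 such rows, 33 had at least 0.2 FPKM in MLL4SET-MKO together with at least 8 times the WT value or a WT value listed at 0, and 8 met the mirrored criterion in WT. The minimum and the fold were chosen after the data were seen, and the authors' table holds no test of these rows. Between Trib2 and Lpin1 on chromosome 12 lay 2 of the 33, with 0.350 and 0.438 FPKM in MLL4SET-MKO against 0.0180 and 0.0227 FPKM in WT. Outside this stretch the other 31 had 0.205 to 0.529 FPKM in MLL4SET-MKO. Of the 8 rows that were lower, 3 lay side by side on chromosome 8 (11172196 to 11177109), listed at 0 in MLL4SET-MKO and at 0.234 to 0.262 FPKM in WT.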

How the results depend on the processing

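With p-values taken from the authors' statistic as if it were a standard normal value and adjusted by Benjamini-Hochberg over all tested rows, 61 of 1052 unnamed loci were called in place of 171 (40 higher and 21 lower, 5.8%), against 3.11% of all tested rows. On that reading 23 loci over noncoding exons and 16 loci more than 10 kb from genes were called. Among loci of at least 1 FPKM, with p-values adjusted again, 71 of 383 were called, and the counts were 23 over noncoding exons, 12 far from genes and 2 between Trib2 and Lpin1. At q under 0.01, 116 unnamed loci were called, against 7.85% of all tested rows (10.9% of unnamed loci), and 31 over noncoding exons. Without rows listed at 0, a setting chosen once the values were known, 155 loci were called. Without rows within 5 Mb of Kmt2d, 161 were called, and 171 without loci that overlap another tested row.

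The median log2 ratio of unnamed loci was -0.0617 at a mean of at least 5 FPKM, against -0.01 at 1 FPKM, and stayed within the interval of that median (-0.05 to 0.06) under the other 4 alternatives. It was 0.02 both without a filter and when centred on all rows. Loci in clusters made up 31.5% at gaps of up to 5 kb, 48.1% at 50 kb and 27.7% among loci of at least 1 FPKM. Loci over an exon made up 41.7% where at least 50% of the locus had to lie in the gene and 24.2% for protein-coding genes alone. The share of called loci whose nearest gene had the same direction was 78.7% to 86.7% under its 3 alternatives. Of the 44 called loci named by rule, 35 passed at q under 0.01 and 23 of 36 passed on the standard normal reading. The cause of these shifts was not tested.

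No paired analysis was possible because the table holds 1 value per group, and for the same reason no replicate was left out. Depth is unknown, and the counting error of weak loci is not given.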

Other observations

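Some called loci counted among the pairs of a locus and its nearest gene were not described there. A locus over an annotated exon of Trak1, 2540 bases before the start of its row in the table, had 72.9 FPKM in MLL4SET-MKO and 111.8 FPKM in WT and was called lower (log2 ratio -0.62), while Trak1, which encodes an adaptor of mitochondrial transport, had 73.2 FPKM in MLL4SET-MKO and 91.6 FPKM in WT and was not called (q = 0.0795 in the authors' deposited table). A cluster of 12.3 kb next to Tmem52, a transmembrane protein gene that was lower (15.4 FPKM in MLL4SET-MKO and 66.9 FPKM in WT), held 3 loci over Cfap74 exons, and all 3 were called lower. Of these, 2 have Tmem52 as their nearest gene and belong to the 15 lower pairs. Levels of the 3 loci ran from 0.139 to 0.206 FPKM in MLL4SET-MKO and from 0.501 to 0.612 FPKM in WT. Cfap74 itself was not called, at 0.397 FPKM in MLL4SET-MKO and 0.620 FPKM in WT (q = 0.501 in the authors' deposited table). These loci were singled out after their values were seen.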
